A study of Mus musculus with 6 samples.

Results

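The tight junction genes described here are 10 genes of the 23699 gene models measured: the pore-forming claudins Cldn2 and Cldn15, the sealing claudins Cldn3, Cldn4, Cldn7, Cldn18 and Cldn23, and the partners Ocln, Tjp1 and F11r. They were chosen by name, and each name matched 1 gene model. RNA sequencing of the proximal duodenum (bulk tissue) compared 3 mutant with 3 control libraries from mice of 6 weeks on a mixed background. Mutants were Nkx2.2flox/flox; Villin-Cre/+, and mutant 3 carried Rosa26Tomato/+ in addition. Controls were Nkx2.2flox/+ and so had a floxed allele but no Cre. Villin-Cre is active in the intestinal epithelium, so muscle, nerves, vessels and leukocytes of the same piece of gut keep their alleles. Nkx2.2 is a transcription factor of the enteroendocrine lineage.

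Tight junctions close the space between neighbouring epithelial cells near the lumen. Claudins are membrane proteins that form the strands. Cldn2 and Cldn15 form channels for small cations and water, and in the mouse small intestine they let sodium return to the lumen, which sugar and bile acid uptake use. Cldn3 and Cldn4 tighten the seal, Cldn7 lies also along the lateral membrane and its effect on ions differs between studies, Cldn18 is the claudin of stomach and lung, and Cldn23 is a claudin of surface epithelium in the gut. Occludin (Ocln) is a membrane protein of the strands, ZO-1 (Tjp1) the scaffold that ties claudins to actin through PDZ domains, and JAM-A (F11r) an immunoglobulin-type adhesion protein that helps to place the junction.

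Depth, derived from the values and rounded, was 21000000 to 23800000 fragments in mutants and 21400000 to 26200000 fragments in controls. Nkx2-2 itself lay at 1.10, 0.736 and 0.221 FPKM (fragments scaled to transcript length in kilobases and to library depth) in mutants 1 to 3, against 1.13, 1.32 and 0.779 FPKM in controls 1 to 3, so the groups overlapped. Markers of the labelled tissue were present in every library. Vil1, the brush border protein villin, lay at 528 to 702 FPKM in mutants and 561 to 651 FPKM in controls, and Pdx1, a transcription factor of the duodenum, at 76.7 to 84.7 FPKM in mutants and 87.2 to 93.7 FPKM in controls. The 10 exocrine pancreas markers (13 gene models) summed to 2767 to 12334 FPKM in mutants and 11767 to 19241 FPKM in controls. Of 12 tested models, 0 were called by the test given below (0.0221% of all tested genes). However, 0 of 12 had a log2 change above 0, and the median was -1.26. An unadjusted limma p under 0.05 was reached by 3 of 12 (3.43% of all tested genes). The groups did not overlap in 3 of 12 (7.75% of all tested genes). The part of pancreas content in the results below was not tested. Libraries with the number 3 stood apart in both groups. Reg3b, an antibacterial lectin of the gut, lay at 651, 207 and 47743 FPKM in mutants 1 to 3, against 1467, 5823 and 42934 FPKM in controls 1 to 3. Mutants 2 and 3 expressed Xist, the RNA of the inactive X, at 19.7 and 22.5 FPKM, against at most 0.0894 FPKM in mutant 1 and the controls, and mutant 1 and the controls expressed the Y-linked Ddx3y at 11.4 to 13.8 FPKM, so that the groups differed in sex.

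Of the 10 genes, 9 had at least 0.5 FPKM in at least 3 libraries and entered the test, and 0 of 9 differed between mutants and controls in either direction (limma on log2(FPKM + 0.5), Benjamini-Hochberg adjusted p under 0.05 over 13596 genes, n = 3 against 3). In the same comparison 0.0221% of all tested genes passed, 0.00736% higher and 0.0147% lower in mutants. At an unadjusted p under 0.05 the count was also 0 of 9, against 3.43% of all tested genes. The values of mutants and controls overlapped in all 9 tested genes, whereas the groups did not overlap in 7.75% of all tested genes. The median log2 change of the 9 genes was -0.03, against -0.02 over all tested genes. The adjusted p of each of the 9 was 0.999. In the authors' deposited table, made with DESeq, all 10 genes had an adjusted p of 1, with 26 of 18605 genes under 0.05. A p above the threshold does not show equality, so the intervals of the changes are given below. They cover the spread between these libraries, which the labels do not describe in words as separate animals, and fewer epithelial cells or less RNA per cell cannot be told apart in bulk tissue.

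**Figure D1:**
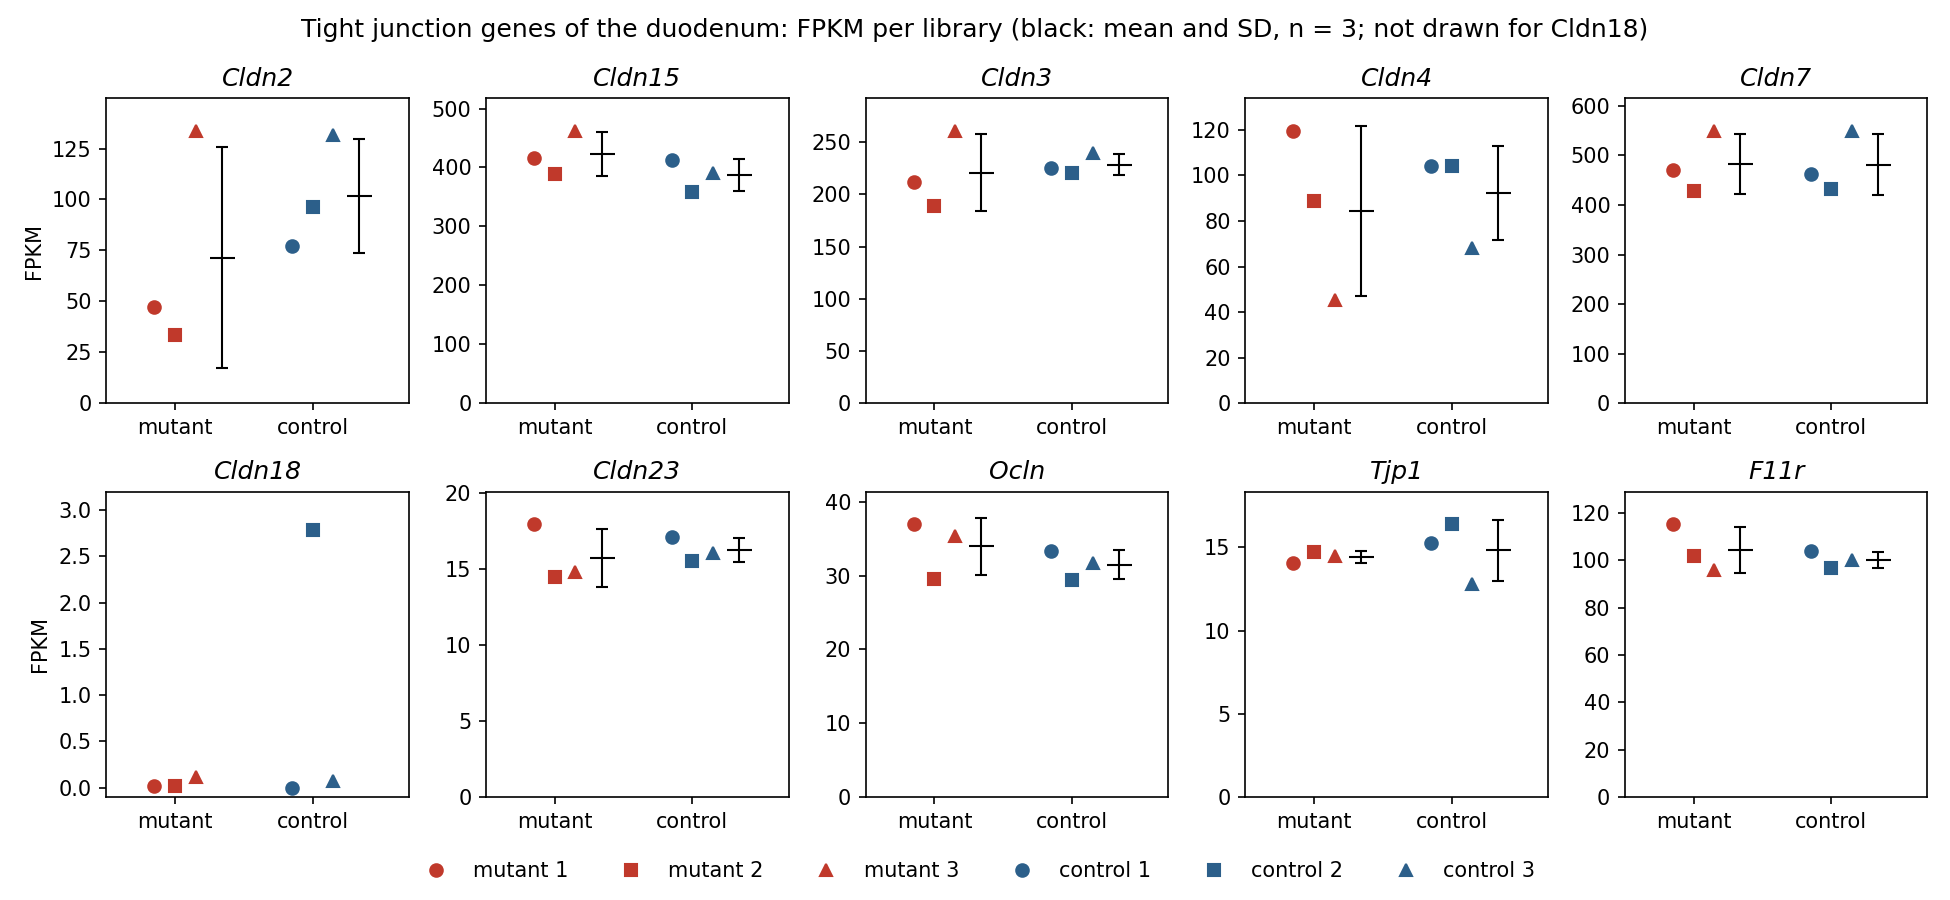
FPKM of the 10 tight junction genes in each library (red, mutants on the left of each panel; blue, controls on the right; circle, square and triangle are libraries 1, 2 and 3), with mean and SD in black, and no mean for Cldn18. Cldn2 and Cldn4 spread widely within both groups and in opposite ways in the libraries numbered 3, Cldn18 is seen in control 2 at 2.79 FPKM, and the other 7 genes stay within a narrow band.

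Start sequences are shown for 3 genes whose levels differ most between libraries: Cldn18, because it has 2 start sites of which control 2 read mainly the upstream one, and Cldn2 and Cldn4, because they spread most among the claudins of the tested set. Each window runs from 250 bases before to 50 bases after a RefSeq start, 5′ to 3′ on the gene's strand, and was placed on mm9 by an exact match (the RefSeq table itself is on GRCm38.p6). Capitals mark letters that match a searched motif on either strand: TTTAT for Cdx factors, TGANTCA for AP-1, AGATAA for the GATA factors, GTTAAT for part of an HNF1 site, CAGGTG for the E-box that Snail-type repressors bind, and TATAAA for the TATA box. The Cdx motif on the other strand lies inside the TATA box motif, and it can overlap the GATA factor motif.
Cldn18, upstream start (chr9:99617637-99617936, minus strand): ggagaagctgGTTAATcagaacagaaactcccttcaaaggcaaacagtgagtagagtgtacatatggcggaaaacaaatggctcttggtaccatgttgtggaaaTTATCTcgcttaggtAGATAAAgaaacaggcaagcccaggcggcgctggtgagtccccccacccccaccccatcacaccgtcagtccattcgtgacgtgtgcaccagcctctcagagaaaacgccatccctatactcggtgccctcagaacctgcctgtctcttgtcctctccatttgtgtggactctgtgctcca
Cldn18, downstream start (chr9:99610433-99610732, minus strand): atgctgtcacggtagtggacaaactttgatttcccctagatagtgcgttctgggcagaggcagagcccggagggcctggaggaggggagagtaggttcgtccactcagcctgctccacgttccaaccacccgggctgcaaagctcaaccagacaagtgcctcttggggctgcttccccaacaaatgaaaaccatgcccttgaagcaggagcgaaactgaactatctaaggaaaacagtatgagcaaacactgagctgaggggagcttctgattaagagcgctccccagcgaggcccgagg
Cldn2 (chrX:136335097-136335396, plus strand): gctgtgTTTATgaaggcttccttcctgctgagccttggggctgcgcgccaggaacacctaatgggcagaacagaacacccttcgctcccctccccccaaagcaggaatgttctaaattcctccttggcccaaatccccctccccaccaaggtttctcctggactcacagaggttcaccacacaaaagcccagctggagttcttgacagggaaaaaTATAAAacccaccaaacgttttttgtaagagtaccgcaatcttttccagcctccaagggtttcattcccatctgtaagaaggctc
Cldn4 (chr5:135422755-135423054, minus strand): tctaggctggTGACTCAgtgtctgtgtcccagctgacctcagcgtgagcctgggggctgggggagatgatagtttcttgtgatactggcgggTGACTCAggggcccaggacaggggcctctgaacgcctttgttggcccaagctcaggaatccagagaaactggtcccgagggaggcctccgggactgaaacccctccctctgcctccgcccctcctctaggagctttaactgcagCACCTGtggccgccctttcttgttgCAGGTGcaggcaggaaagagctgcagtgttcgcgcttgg

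Of the 10 genes, 9 had a window in the RefSeq table, 12 windows in all. The Cldn2 window held TATAAA at position -35 from the start, and TTTAT at -244 and, on the other strand and within the TATA box, at -34. Of 32851 mouse windows of the same length, 13.6% held TATAAA and 40% held TTTAT. The Cldn4 window held neither, but TGANTCA at -240 and -158, a motif in 7.81% of all windows, and CAGGTG at -14 and 12, a motif in 20.2%. The upstream Cldn18 window held AGATAA at -146 and -131 (11.2% of all windows), GTTAAT at -240 (7.1%) and TTTAT at -129, while the downstream window held none of the 6 motifs. These are matches of letters only. Factor binding was not measured.

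Of the pore-forming claudins, Cldn15 (chromosome 5, 137443739 to 137451715, mm9) had the higher level per transcript length, at 415, 389 and 462 FPKM in mutants 1 to 3, against 413, 358 and 391 FPKM in controls 1 to 3. Mutant 3 was the highest and control 2 the lowest, and the other 4 libraries lay close together. Its log2 change was 0.12 ± 0.13 (SE), with a 95% interval from a fold of 0.877 to 1.35.

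Cldn2 (chromosome X, 136335347 to 136345927), the other cation and water pore, lay at 47.1, 33.7 and 133.8 FPKM in mutants, against 76.9, 96.5 and 132 FPKM in controls. Mutants 1 and 2 lay under every control, whereas mutant 3 lay above every control, so that the mutants held both ends of a 3.97-fold range. The log2 change was -0.73 ± 0.54 (unadjusted p = 0.231, limma adjusted p = 0.999), and the 95% interval of the fold ran from 0.236 to 1.54. Without mutant 3 the log2 change was -1.31 ± 0.26 (unadjusted p = 0.00201), and the adjusted p of 0.161 over all genes still missed the threshold. Without both libraries numbered 3, a setting chosen after seeing the data, it was -1.10 ± 0.19 (limma adjusted p = 0.0771). Other single omissions went both ways. The change was smaller at -0.32 ± 0.50 without mutant 2 (limma unadjusted p = 0.551), -0.53 ± 0.67 without control 3 and -0.56 ± 0.64 without mutant 1. It was larger at -0.91 ± 0.65 without control 1 and -0.75 ± 0.64 without control 2. Library quality weights gave -0.94 ± 0.35 with an unadjusted p of 0.0372 and an adjusted p of 0.350. In the authors' deposited table the mean normalized count of Cldn2 was 4519 in mutants and 6455 in controls, with a fold of 0.700 and a p of 0.369.

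Reg3b moved with Cldn2 across the libraries, and its part in the spread of Cldn2 was not tested. The order of the 6 libraries by Cldn2, from low to high, was mutant 2, mutant 1, control 1, control 2, control 3 and mutant 3, which is also their order by Reg3b (compared after the values were seen). Cldn2 is X-linked, and the 2 libraries with Xist, mutants 2 and 3, held its lowest and its highest value. Both are mutants, so sex and group are mixed, and the part of sex in the spread of Cldn2 was not tested. Cldn2 is known to be concentrated in crypts. The 8 crypt markers (stem cell and proliferation genes) lay at a median of -0.42, -0.32 and 0.03 on the log2 scale in mutants 1 to 3, each gene being centred on its average in the controls, and at -0.14, 0.19 and -0.08 in controls 1 to 3. The summed level of these markers was 323, 290.3 and 321 FPKM in mutants, against 364, 407 and 256 FPKM in controls, and none was at 0. This sum was lowest in control 3, where Cldn2 was second highest. However, the crypt marker Olfm4 made up most of the sum, at 156 of the 256 FPKM in control 3. Mutants 1 and 2, which were lowest in Cldn2, were also the lowest libraries for the crypt markers Axin2, Ccnb1, Smoc2, Mki67 and Top2a. They were not the lowest for Olfm4, Ascl2 and Lgr5. The part of crypt content in the spread of Cldn2 was not tested. The 9 villus enterocyte markers lay at 0.39, 0.70 and -0.43 in mutants and at 0.48, 0.25 and -0.70 in controls, with summed levels of 21621 to 46272 FPKM in mutants and 17836 to 38556 FPKM in controls, and none at 0.

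Among the tested genes, with predicted models and small RNAs left out, the 5 with the profile nearest to that of Cldn2 over the 6 libraries were Dmbt1, Ccl24, Reg1, Muc4 and Sval1. Their root mean square difference from the centred log2 profile of Cldn2 was 0.11, 0.11, 0.15, 0.18 and 0.18. Dmbt1 encodes a secreted scavenger-receptor mucosal protein, and it lay at 340, 284 and 899 FPKM in mutants, against 530.4, 715 and 901 FPKM in controls. Ccl24, an eosinophil-attracting chemokine, lay at 1.57, 0.934 and 5.44 FPKM in mutants, against 2.30, 3.70 and 5.53 FPKM in controls. With 6 libraries and 13596 genes, nearness of profile is a description only.

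Of the sealing claudins, Cldn7 (chromosome 11, 69778281 to 69781388) had the highest mean level per transcript length of all 10 genes, at 469.8, 429 and 549.5 FPKM in mutants, against 462, 433 and 550.0 FPKM in controls. Within both groups library 3 was highest and library 2 lowest, and same-numbered libraries differed by less than those of different number. Its log2 change was 0.00 ± 0.16, and the 95% interval of the fold ran from 0.774 to 1.30. Cldn3 (chromosome 5, 135462084 to 135463346) lay at 212, 189 and 261 FPKM in mutants, against 226, 220.1 and 239.9 FPKM in controls. The mutants lay on both sides of the controls, and the log2 change was -0.06 ± 0.15 (fold interval 0.754 to 1.22). Cldn23 (chromosome 8, 36887763 to 36889613) lay at 18.0, 14.5 and 14.8 FPKM in mutants, against 17.2, 15.6 and 16.1 FPKM in controls. The groups overlapped, with a log2 change of -0.05 ± 0.11 and a fold interval of 0.802 to 1.16.

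Cldn4 (chromosome 5, 135420993 to 135422804), a sealing claudin whose gene lies next to Cldn3, lay at 119.7, 88.6 and 45.2 FPKM in mutants, against 104, 104 and 68.3 FPKM in controls. The lowest library of each group was the one numbered 3, where Cldn2 was highest. The range over the 6 libraries was 2.65-fold, whereas that of its neighbour Cldn3 was 1.38-fold. The log2 change of Cldn4 between groups was -0.21 ± 0.38, and the 95% interval of the fold ran from 0.458 to 1.64. Its sign rested on mutant 3, since the log2 change was 0.19 ± 0.23 without that library. It was 0.17 with library quality weights, -0.51 without mutant 1, -0.41 without control 3, and -0.02 without both libraries numbered 3. The ratio of Cldn2 to Cldn4 in FPKM, computed after the values were seen, was 0.393, 0.380 and 2.96 in mutants, against 0.737, 0.928 and 1.93 in controls.

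The 5 tested genes nearest in profile to Cldn4 were Ptgr1, Gstk1, Gsta2, Gclc and Cyp2c65, with root mean square differences of 0.10, 0.14, 0.14, 0.15 and 0.15 on the log2 scale over the 6 libraries. Gsta2 encodes a glutathione transferase and lay at 165, 110.2 and 71.8 FPKM in mutants, against 152, 159 and 115 FPKM in controls. Gclc encodes the catalytic subunit of the first enzyme of glutathione synthesis and lay at 64.7, 54.3 and 27.1 FPKM in mutants, against 62.1, 63.1 and 31.3 FPKM in controls. In both, mutant 3 was the lowest library and control 3 the lowest control, which follows from their choice by nearness to the profile of Cldn4.

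**Figure D2:**
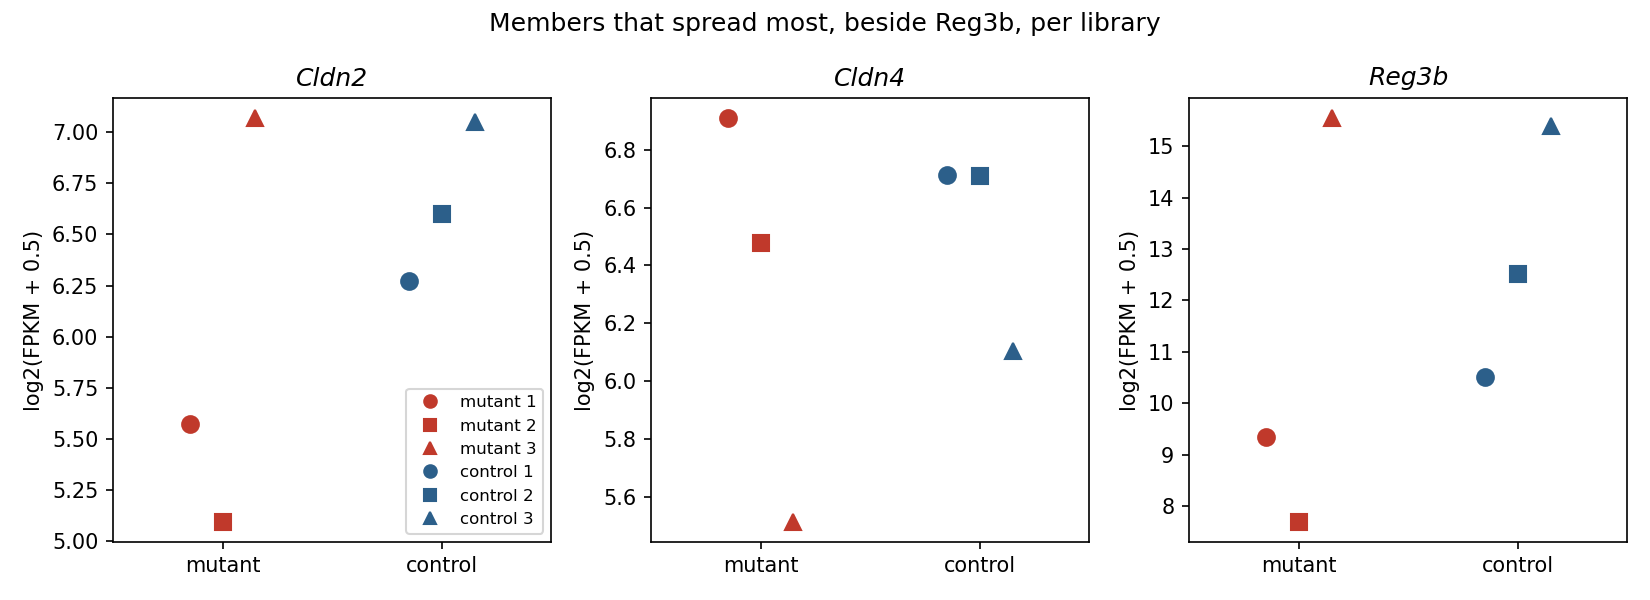
log2(FPKM + 0.5) of Cldn2, Cldn4 and Reg3b per library (red, mutants on the left; blue, controls on the right; circle, square and triangle are libraries 1, 2 and 3). The triangles, libraries 3, are highest in their group for Cldn2 and Reg3b and lowest for Cldn4, and the mutants span the whole range of Cldn2 from 33.7 to 133.8 FPKM.

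Cldn18 (chromosome 9, 99591216 to 99617686) was above 0.114 FPKM in control 2 alone. It lay at 0.0183, 0.0164 and 0.114 FPKM in mutants, against a listed 0, 2.79 and 0.0728 FPKM in controls. The value of control 2 corresponded to 152 fragments and the values of the other libraries to at most 3.56, and Cldn18 was under the filter. In the authors' deposited table its mean normalized count was 2.39 in mutants and 51.2 in controls (fold 0.0466, p = 0.246), a difference that control 2 carries in the FPKM values.

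Of the 4 Cldn18 transcripts, NM_001194921, which begins at the upstream start, took 2.69 FPKM in control 2, or 96.4% of the gene. NM_019815, which begins at the downstream start, took 0.101 FPKM in that library. Mouse Cldn18 is known to have alternative first exons used in stomach and in lung. In mutant 3, with few fragments, 99.0% was assigned to NM_019815, at 0.112 FPKM, and these shares are estimates by Cufflinks.

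On the list of stomach and Brunner gland markers, all but Gif, Atp4a and Atp4b lay highest in control 2 as well. Those exceptions were under the filter, as were Muc5ac and Sox2. In control 2 Tff1 lay at 136 FPKM, against at most 2.64 FPKM elsewhere. Gkn3, Muc6 and Muc1 lay at 1624, 95.1 and 5.12 FPKM in control 2, against at most 1101, 59.5 and 3.39 FPKM elsewhere. Gkn1, which encodes gastrokine 1 of the stomach surface, lay at 0.605, 0.499 and 0.142 FPKM in mutants, against 0.792, 111 and 0.231 FPKM in controls. Gkn2, a second gastrokine, lay at 0.663, 0.370 and 0.0842 FPKM in mutants, against 1.28, 207 and 0.0823 FPKM in controls. Muc5ac, the mucin of stomach surface cells, lay at no more than 0.00566 FPKM in mutants, against 0.0230, 2.86 and 0.00281 FPKM in controls. Atp4b, the parietal cell proton pump subunit, was listed at 0 in mutants 2 and 3 and control 3 and at no more than 0.0421 FPKM elsewhere. Gif, the gene of intrinsic factor, lay at 0.569, 0.540 and 0.181 FPKM in mutants, against 0.202, 0.278 and 0.212 FPKM in controls, so control 2 was not the highest. Atp4a, the other proton pump subunit, was highest in mutant 1, at 0.261 FPKM, against 0.0850 FPKM in control 2. Tff2, a peptide of Brunner glands and stomach, was present in every library, at 3639, 855 and 104 FPKM in mutants, against 2096, 6296 and 2379 FPKM in controls. Over the whole list of 13 stomach and Brunner gland markers (14 gene models) the summed level was 4814, 1098 and 144 FPKM in mutants, against 2715, 8652 and 3117 FPKM in controls. Of 9 tested models 0 passed (0.0221% of all tested genes), but 0 had a log2 change above 0, with a median of -2.41. The groups did not overlap in 1 of 9 (7.75% of all tested genes), Pgc. It lay at 4.04, 1.14 and 1.14 FPKM in mutants, against 14.1, 38.8 and 7.55 FPKM in controls (limma unadjusted p = 0.00942, adjusted p = 0.999). The part of stomach tissue in the Cldn18 value was not tested.

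The 5 tested genes nearest in profile to Cldn18 were Gast, Mal, Scd2, Cwc22 and Syt8, at root mean square differences of 0.35, 0.45, 0.47, 0.47 and 0.52. Gast, which encodes gastrin of the distal stomach and proximal duodenum, lay at 0.768, 0.172 and 0.390 FPKM in mutants, against 0.156, 6.37 and 0.572 FPKM in controls, with control 2 far above the others. A high control 2 follows from the choice by profile, and the nearness is a description only. The search covered tested genes alone, although Cldn18 itself was under the filter. Genes seen almost only in control 2 were therefore left out. Among them was Muc5ac, at 2.86 FPKM in control 2 and at most 0.0230 FPKM elsewhere, so nearer profiles can exist among the untested genes.

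**Figure D3:**
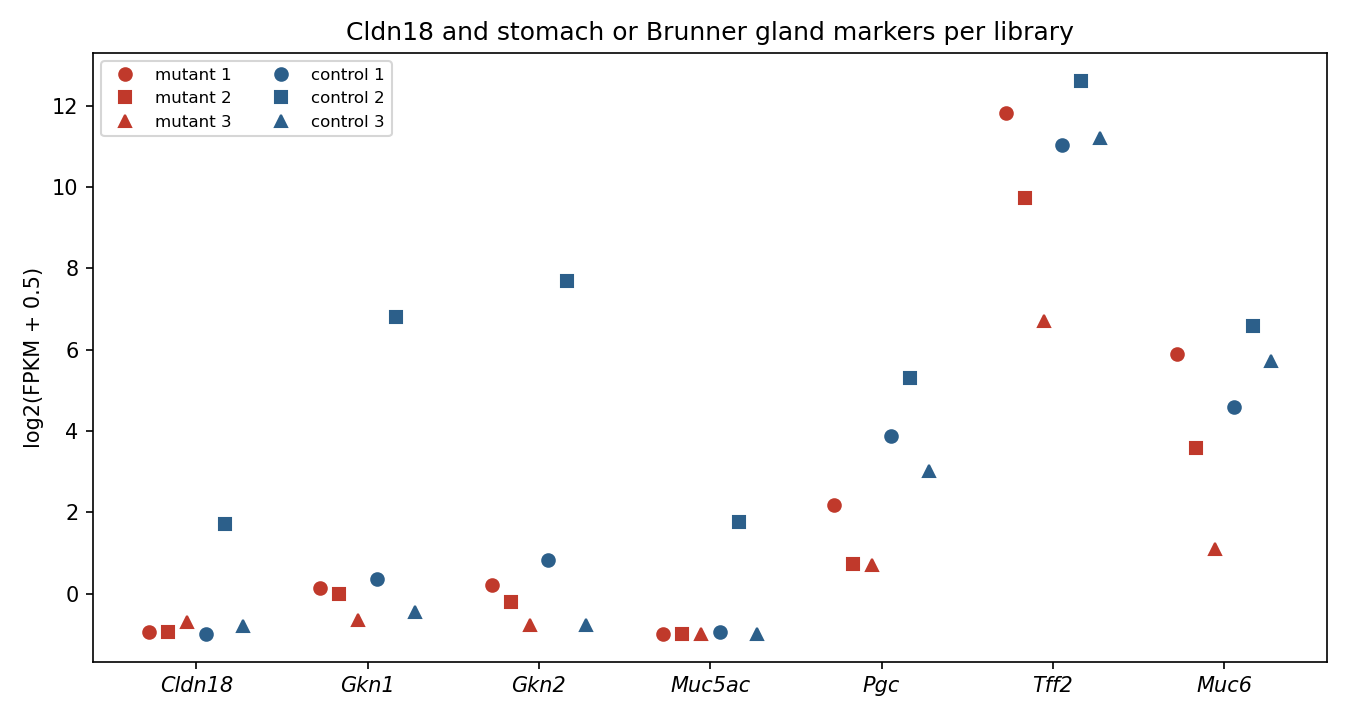
log2(FPKM + 0.5) of Cldn18 and of 6 stomach or Brunner gland markers in each library (red, mutants; blue, controls; circle, square and triangle are libraries 1, 2 and 3). For Cldn18, Gkn1, Gkn2 and Muc5ac control 2 (blue square) stands well above the other 5 libraries, whereas Tff2 and Muc6 are present in all libraries and lowest in mutant 3.

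Set against each other, the pore-forming claudins summed to 462, 423 and 596 FPKM in mutants and to 489.9, 455 and 523 FPKM in controls. The sealing claudins summed to 819, 721 and 871 FPKM in mutants and to 809, 775 and 874 FPKM in controls. The ratio of pore-forming to sealing claudins was 0.564, 0.587 and 0.685 in mutants, against 0.606, 0.586 and 0.598 in controls. It averaged 0.612 ± 0.0640 in mutants and 0.597 ± 0.00980 in controls (SD, n = 3 each). The 3 controls lay close together, and mutant 1 lay below and mutant 3 above them. The log2 ratio differed by 0.031 (mutant minus control), less than the SD of 0.15 in mutants and more than the SD of 0.024 in controls. This difference changed sign to -0.05 without mutant 3. No p is given, since the score combines chosen genes.

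The make-up of the pore-forming sum varied more than its ratio to the sealing sum. Cldn2 made up 10.2%, 7.96% and 22.4% of it in mutants, against 15.7%, 21.2% and 25.2% in controls, and Cldn15 the rest. Within the sealing sum Cldn7 made up 57.3%, 59.5% and 63.1% in mutants, against 57.1%, 55.8% and 62.9% in controls. Cldn4 made up 14.6%, 12.3% and 5.19% in mutants, against 12.9%, 13.4% and 7.81% in controls. In both groups the library numbered 3 had the largest share of Cldn2 and the smallest of Cldn4.

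**Figure D4:**
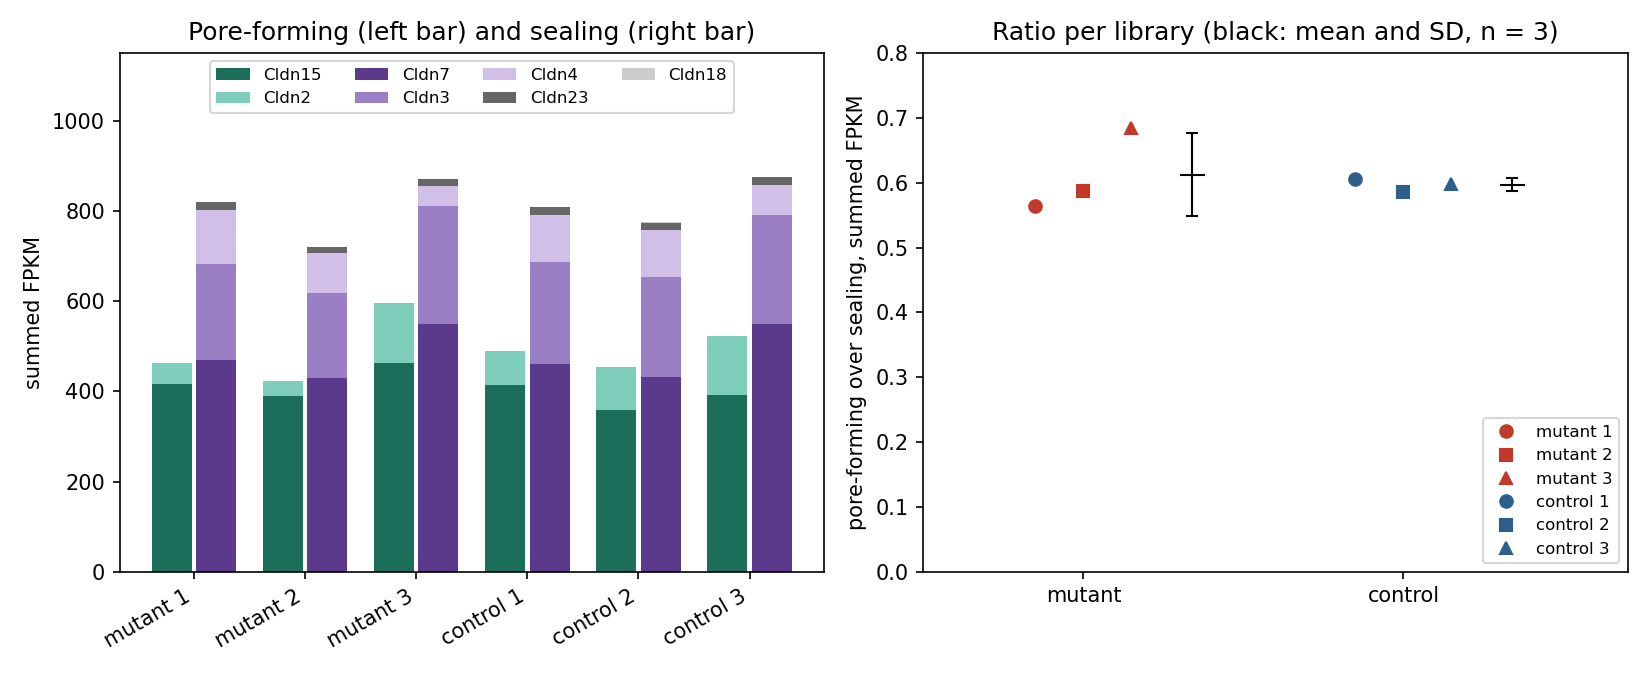
Left, summed FPKM of pore-forming claudins (green, left bar) and sealing claudins (purple and grey, right bar) in each library, mutants first. Right, their ratio per library with mean and SD (n = 3), where the 3 controls lie near 0.6 and the mutants spread from 0.564 to 0.685.

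Of the partners, Ocln (chromosome 13, 101267322 to 101322453) lay at 36.9, 29.6 and 35.4 FPKM in mutants, against 33.3, 29.4 and 31.7 FPKM in controls. Each mutant lay above the control of its number, but the groups overlapped, and the log2 change was 0.10 ± 0.12 (fold interval 0.890 to 1.30). Tjp1 (chromosome 7, 72441051 to 72516130) lay at 14.0, 14.7 and 14.5 FPKM in mutants, against 15.3, 16.4 and 12.8 FPKM in controls. The mutants lay inside the range of the controls, with a log2 change of -0.03 ± 0.12 and a fold interval of 0.812 to 1.18. F11r (chromosome 1, 173367692 to 173394724) lay at 115, 102 and 96.1 FPKM in mutants, against 103.8, 96.9 and 100.1 FPKM in controls. Its groups overlapped too, with a log2 change of 0.05 ± 0.11 and a fold interval of 0.867 to 1.24.

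**Figure D5:**
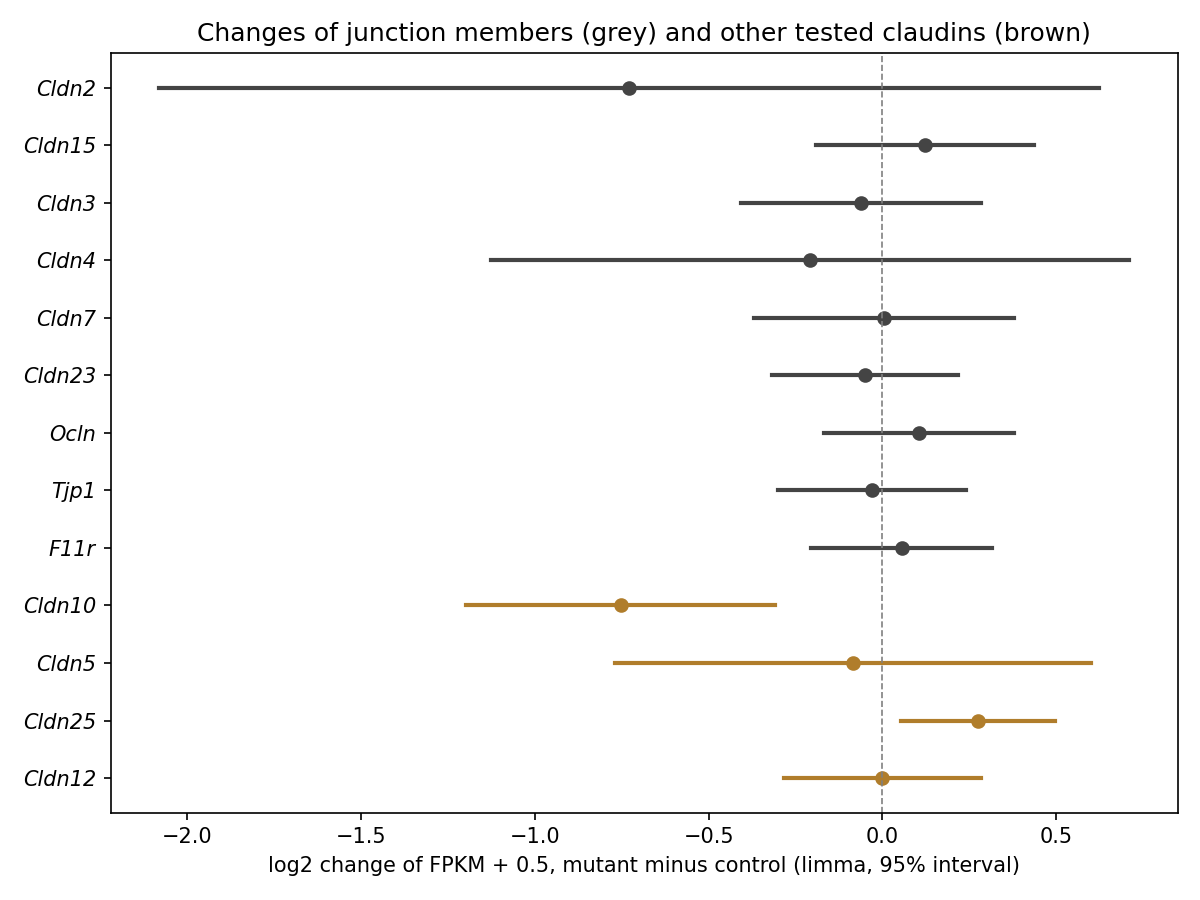
log2 change of FPKM + 0.5, mutant minus control, with limma's 95% interval, for the 9 tested tight junction genes (grey) and the 4 other tested genes with a claudin name (brown). RefSeq lists the transcripts of Cldn25 under Cldnd1. Intervals of all grey genes include 0, those of Cldn2 and Cldn4 are the widest, and those of Cldn10 and Cldn25 exclude 0 before adjustment over all genes.

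By level per transcript length, taken over the 6 libraries, Cldn7 (482 FPKM) came first and Cldn15 (405 FPKM) second, with ranges that overlapped. Cldn3 (225 FPKM) followed, apart from both neighbours. F11r (102 FPKM), Cldn4 (88.3 FPKM) and Cldn2 (86.6 FPKM) overlapped, and the order of these 3 is not fixed by these data. Ocln (32.7 FPKM) stood clear of the genes on either side in this order, except that Cldn2 fell to 33.7 FPKM in mutant 2. Cldn23 (16.0 FPKM) and Tjp1 (14.6 FPKM) overlapped, and Cldn18 was last in every library.

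The 10 genes had 15 transcripts in the files, and 3 of the genes, Cldn7, Cldn18 and Tjp1, had more than 1. None of the 4 tested transcripts of Cldn7 and Tjp1 passed (limma, adjusted over 16213 transcripts, of which 0.00617% passed), and 0 of 4 had an unadjusted p under 0.05, against 3.79% of all. The groups overlapped in all 4, and did not overlap in 8.21% of all tested transcripts. The Cldn7 transcript NM_016887 took 91.7% to 98.1% of the gene. The other, NM_001193619, which starts upstream of it, lay at 18.2, 8.27 and 29.8 FPKM in mutants, against 20.4, 19.7 and 45.9 FPKM in controls. It was highest in the libraries numbered 3, with a log2 change of -0.66 ± 0.53 (limma adjusted p = 0.999). Each mutant lay below the control of its number, and with the replicate block the unadjusted p was 0.0329 (limma adjusted p = 0.814), which makes the count at an unadjusted p under 0.05 1 of 4 in that fit. The log2 change was -0.18 without mutant 2, -0.27 without control 3 and -1.07 without mutant 3. Of the Tjp1 transcripts, NM_009386 (7054 bases) took 77.3%, 78.0% and 73.3% in mutants, against 80.8%, 75.2% and 58.8% in controls, and NM_001163574 (6874 bases) the rest. Control 3 was apart from the other 5 libraries in that share.

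The other junction genes, taken from lists made by role, were compared in the same way. Of 86 genes, 65 were tested, 0 passed in either direction in limma, and 4 had an unadjusted p under 0.05, against 3.43% of all tested genes, with a median log2 change of -0.01. Of 4 other tested genes with a claudin name, 2 had groups that did not overlap (Cldn10 and Cldn25), against 7.75% of all tested genes. The Cldn25 model may not be a claudin, so the count rests partly on a name. Cldn10, which forms ion pores in kidney and glands, lay at 0.899, 0.578 and 0.475 FPKM in mutants, against 1.19, 1.38 and 1.71 FPKM in controls (log2 change -0.75 ± 0.19, unadjusted p = 0.00487, limma adjusted p = 0.999). Cldn25, as the files name a gene whose transcripts RefSeq lists under Cldnd1, lay at 54.9, 58.6 and 60.4 FPKM in mutants, against 46.2, 47.7 and 49.6 FPKM in controls (log2 change 0.27 ± 0.09, unadjusted p = 0.0218, limma adjusted p = 0.999). Cldn12 averaged 13.9 ± 1.72 FPKM in mutants and 13.9 ± 1.02 FPKM in controls (SD, n = 3 each). Cldn5, the claudin of endothelium, averaged 2.69 ± 0.600 FPKM in mutants and 3.02 ± 1.47 FPKM in controls, with 0 of 5 endothelial markers called.

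Of 10 other tested membrane proteins of the junction, 0 had an unadjusted p under 0.05, against 3.43% of all tested genes. Lsr, the angulin that marks corners where several cells meet, averaged 91.1 ± 13.5 FPKM in mutants and 92.4 ± 9.17 FPKM in controls. Igsf5, an immunoglobulin-type junction protein, averaged 61.3 ± 2.98 FPKM in mutants and 55.2 ± 4.74 FPKM in controls, and Crb3, a polarity protein, 79.3 ± 8.20 FPKM in mutants and 79.3 ± 12.3 FPKM in controls. Of 22 tested plaque and polarity genes, 2 had groups that did not overlap, against 7.75% of all tested genes. An unadjusted p under 0.05 was reached by 1 of the 22, against 3.43% of all tested genes. That was Cgnl1 (paracingulin), at 1.26 ± 0.278 FPKM in mutants and 1.91 ± 0.432 FPKM in controls. Tjp3 (ZO-3) averaged 54.4 ± 15.1 FPKM in mutants and 59.6 ± 5.61 FPKM in controls, and Cgn (cingulin) 32.8 ± 2.58 FPKM in mutants and 33.4 ± 7.39 FPKM in controls.

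Of 17 tested genes of adherens junctions and desmosomes, 3 had groups that did not overlap (7.75% of all tested genes), namely Cdh17, higher in every mutant than in any control, and Ppl and Ctnnd1 (p120-catenin), lower in every mutant than in any control. An unadjusted p under 0.05 (3.43% of all tested genes) was reached by 1 of the 17, Ppl (periplakin), at 1.20 ± 0.210 FPKM in mutants and 1.96 ± 0.516 FPKM in controls. Cdh17, the liver-intestine cadherin, averaged 519 ± 24.5 FPKM in mutants and 488 ± 12.6 FPKM in controls, and Ctnnb1 (beta-catenin) 303 ± 21.5 FPKM in mutants and 317 ± 30.01 FPKM in controls. Ctnna1 (alpha-catenin) averaged 185 ± 30.6 FPKM in mutants and 179 ± 19.9 FPKM in controls. Of 12 tested genes for ion transport and junction contraction, 0 had an unadjusted p under 0.05, and of these Myl12b, a myosin light chain, averaged 427 ± 16.9 FPKM in mutants and 420.2 ± 10.8 FPKM in controls. Myl9, another light chain, averaged 205 ± 36.5 FPKM in mutants and 206 ± 53.9 FPKM in controls, and the small GTPase gene Rhoa 187 ± 6.32 FPKM in mutants and 182 ± 5.03 FPKM in controls. The 8 epithelial markers had a median log2 change of 0.07, with 0 called, and summed to 6020, 6032 and 4872 FPKM in mutants, against 5922, 5698 and 4906 FPKM in controls.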

How the data were processed

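Libraries were made with a TruSeq kit from duodenal total RNA, per the labels. The authors deposited FPKM per gene and per transcript, made with Cufflinks, and a coverage signal per transcript, per the file headers; another table the authors deposited holds group means of normalized counts (a signal) with a fold ratio, a log2 fold change and p-values for each gene, and no single libraries. Tools in the submitters' processing notes are TopHat, Cufflinks, DESeq and CASAVA 1.8.2, with build mm9; strand and options are not given in the sources used here. Depth was derived from coverage, transcript length and the Cufflinks intervals (fitted read length 101.0 bases); 89.2% of 18106 values of at most 20 fragments lay within 0.1 of a whole fragment. Gene starts in the files count from 0 and were raised by 1.

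Genes that reached 0.5 FPKM in 3 or more libraries were tested on the scale log2(FPKM + 0.5), which understates changes of low genes, with limma 3.58.1 (statmod 1.5.0, trend and robust prior) in R 4.3.3, two-sided, adjusted over all tested genes with a threshold of 0.05; transcripts likewise. Python 3.11.15, pandas 2.3.3, numpy 2.4.6 and matplotlib 3.10.9 made the summaries. The limma fit was tested on simulated data. The genes and lists were chosen with earlier results of these data known. Named are all 10 genes, the other tested claudins, of each other list the 3 genes of highest mean (1 of these is not reported here, and Cgnl1 and Ppl were added after their values were seen), and the 5 nearest profiles of genes that span over 1 on the log2 scale. Single changes that passed no threshold were judged against the SD of the replicates. Both groups carry the numbers 1 to 3; deviations from the group means correlated at 0.26, 0.25 and 0.58 within numbers, each over 0.1, so the numbers pair the libraries in the replicate block, although control 1 correlated at 0.30 with mutant 2. All reported errors, intervals and p-values are unpaired unless the replicate block is named. Alternatives were other pseudocounts, filters, scalings and priors, library weights, a replicate block, other sets of sealing claudins and leaving out libraries.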

Additional observations from a re-analysis of the deposited data

How the results depend on the processing

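None of the 9 tested tight junction genes passed under any of 18 alternative settings, and the counts of 0 higher and 0 lower held throughout, leaving out any library or both libraries numbered 3 (added after seeing the data) included. Of 222 log2 changes of single genes and transcripts, 222 stayed within the replicate SD of the reported value, and 17, in 8 of 13 genes or transcripts, changed sign. The count within the SD is no measure of stability. Filters, prior and replicate block leave a change as it is by construction, and leaving out a single library cannot shift it by that SD. Cldn2 ran from -0.32 without mutant 2 to -1.31 without mutant 3 and still counted as within it. Cldn18 could be fitted only without a filter (log2 change -0.84 ± 0.71, limma adjusted p = 0.995). The log2 ratio of pore-forming to sealing claudins ran from -0.05 to 0.09 when a library was left out, was -0.05 without both libraries numbered 3, 0.08 without Cldn7 and -0.07 as a mean of log2 values. The background count over all genes, 1 higher and 2 lower, was less stable. It was 9 higher and 13 lower with the replicate block, 10 and 9 with library quality weights, 2 and 10 with epithelial marker scaling, 0 and 1 without a filter or with upper quartile scaling, and 138 and 48 without both libraries numbered 3. With TPM scaling 0 were higher, and with a pseudocount of 0.1 or without trend and robust prior 1 was lower. Leaving out single libraries gave 0 to 51 higher and 0 to 12 lower, the most without mutant 3. With the block, which changed no call of a tight junction gene, the adjusted p of Cldn2 was 0.829. With 3 libraries a group, the intervals of Cldn2 and Cldn4 stayed wide, and no detection limit is given.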

Other observations

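Of 19 other claudin genes in the files, 15 were below the filter, 4 of them at 0 in all 6 libraries, and the highest value among the 15 was 0.724 FPKM. That was Cldn9, a claudin of the inner ear, at 0.724, 0.511 and 0.155 FPKM in mutants, against 0.247, 0.149 and 0.113 FPKM in controls. Cldn22 lay at 0.541, 0.375 and 0.308 FPKM in mutants, against 0.152, 0.117 and 0.297 FPKM in controls, with every mutant above every control, and Cldn8, known from the distal colon and kidney, at 0.350, 0.293 and 0.333 FPKM in mutants, against 0.550, 0.684 and 0.369 FPKM in controls, with every mutant below every control. These low genes were picked from the 15 after their values were seen and have no test. For scale, the groups did not overlap in 7.75% of all tested genes.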
